A study of Mus musculus with 20 samples.

Results

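Livers that had lost both Cpt2 and Ppara (Cpt2PparaDKO, 4 libraries) were compared with livers of floxed controls (Control, 4 libraries) across all genes, after 24 h without food. Libraries were taken by their labelled genotype, so the comparison used 8 of the 20 libraries of the series. Cpt2PparaDKO mice carried a liver-specific double knockout of CPT2 and PPAR, which the series' text gives as Cpt2 and Ppara. Control mice carried floxed alleles of CPT1A, CPT1B and CPT2, and no floxed Ppara is named for them. Livers with a liver-specific knockout of Cpt2 alone (Cpt2KO, 4 libraries) were used as a second reference, to show where the double knockout differed from loss of Cpt2. The series' text calls the control mice littermates. The labels give neither the Cre driver nor the age, and whether each library stands for an animal of its own is not stated. The p-values therefore set the difference between groups against the spread between libraries, which may be technical to an unknown degree. Cpt2PparaDKO and Cpt2KO each held libraries of male and of female expression pattern, described below. Within these groups, not all libraries came from the same animal. A difference between mouse lines, such as that of a Ppara colony, cannot be told apart from the genotype.

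CPT2, at the inner mitochondrial membrane, turns acylcarnitines back into acyl-CoA, so that long-chain fatty acids can enter β-oxidation. PPARα, encoded by Ppara, is a nuclear receptor that pairs with RXR, is activated by fatty acids and their derivatives, and in fasting liver switches on genes of mitochondrial, peroxisomal and microsomal fatty acid oxidation, ketogenesis, acyl-CoA hydrolysis and lipid droplets. It binds the PPAR response element, a direct repeat of the half-site AGGTCA with 1 base between the copies.

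Levels are given as CPM, read counts normalised to library size with TMM factors, and changes as log2 fold changes with their standard error (SE), Cpt2PparaDKO over the group named. A gene was called, and is said to have risen or fallen, at a Benjamini-Hochberg adjusted p under 0.05 over 15669 genes in edgeR's quasi-likelihood test. Total counts were 36452673 in Cpt2PparaDKO replicate 1 and 17160129 to 20030055 in the other 7 libraries of this comparison. Cpt2PparaDKO replicate 4 stood apart from its group. Its log2 CPM correlated with the other Cpt2PparaDKO libraries at r = 0.948 to 0.956, against 0.983 to 0.991 among those 3, and it was the only female-pattern library of the 8, with 32612 reads of Xist, the RNA that silences an X chromosome, and 0 reads summed over the Y-linked genes, so results are also given without it. Cpt2KO replicate 3 had the female pattern as well. Albumin took 1.86 to 3.34% of the counts in Cpt2PparaDKO libraries and 5.07 to 5.88% in Control libraries.

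The targeted genes matched the labels. Cpt2 had 31.4, 39.0, 36.8 and 28.5 CPM in the 4 Cpt2PparaDKO libraries, against 211, 267, 254 and 266 CPM in the 4 Control libraries. Its log2 fold change was -2.88 ± 0.20 (SE, adjusted p = 2.38e-09). Ppara had 75.7, 83.3, 79.4 and 54.2 CPM in Cpt2PparaDKO livers and 189, 198, 269 and 277 CPM in Control livers, a log2 fold change of -1.67 ± 0.24 (SE, adjusted p = 3.86e-05). For both genes every Cpt2PparaDKO library lay below every Control library. Cpt2 was also lower in Cpt2PparaDKO than in Cpt2KO livers (log2 fold change -1.95, adjusted p = 1.39e-07). Its RNA was thus not equally low in both knockouts, and the cause was not tested. The counts cover whole genes, so reads from undeleted exons and from liver cells outside the hepatocytes stay in these values. Cpt1a, the outer-membrane carnitine palmitoyltransferase of liver, had 1011, 962, 920 and 468 CPM in Cpt2PparaDKO livers and 940, 1045, 1039 and 1127 CPM in Control livers, which overlapped (log2 fold change -0.30 ± 0.18 SE, adjusted p = 0.198). Cpt1b, its muscle form, was near the detection limit in both groups, at 0.580 ± 0.200 CPM in Cpt2PparaDKO livers and 0.543 ± 0.215 CPM in Control livers (SD, n = 4 each; log2 fold change 0.11 ± 0.41 SE, adjusted p = 0.863).

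**Figure D1:**
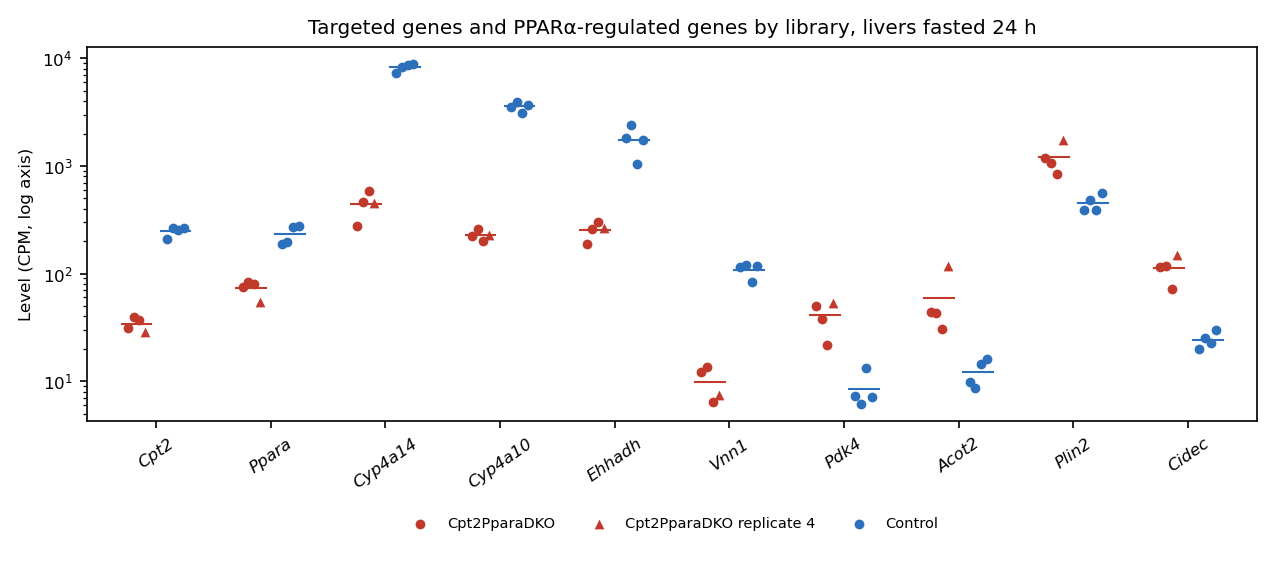
Levels of 10 genes in each library (CPM, log axis; 1 point per library, Cpt2PparaDKO left of Control within each gene, bars at the mean). Cpt2, Ppara, Cyp4a14, Cyp4a10, Ehhadh and Vnn1 are lower in every Cpt2PparaDKO library, Cyp4a14 at 276 to 590 CPM against 7262 to 8842 CPM in Control libraries, whereas Pdk4, Acot2, Plin2 and Cidec are higher.

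Across the transcriptome, 5091 of 15669 genes (32.5%) differed between Cpt2PparaDKO and Control livers. Of all genes tested, 2328 (14.9%) were higher and 2763 (17.6%) were lower in Cpt2PparaDKO livers, and the median log2 fold change over all of them was 0. Changes of at least 2-fold were called for 946 genes that rose and 1083 that fell. Changes of at least 16-fold were called for 46 and 34. Without Cpt2PparaDKO replicate 4 the call count was 4208. Protein-coding genes were called more often than long non-coding RNAs, with 34.5% of 13011 against 24.3% of 1501 called, and of the 365 long non-coding RNAs called, 260 fell. The classes were not matched for level, which affects how readily a gene is called. Within 5 Mb of Cpt2, 15 of 59 genes rose (25.4%) and 7 fell (11.9%). Within 5 Mb of Ppara, 15 of 127 rose (11.8%) and 35 fell (27.6%). Over all genes tested, 14.9% rose and 17.6% fell, and whether the shares near the loci differ from these was not tested. The counts below are read against these shares.

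PPARα targets fell as a group, and 3 of them rose. Of 46 canonical targets measured, 37 were lower, 3 were higher and 6 were not called, with a median log2 fold change of -1.42. Without Cpt2PparaDKO replicate 4 the counts were 36 lower and 4 higher, with a median of -1.24. Their summed level was 8004 to 11520 CPM in Cpt2PparaDKO libraries and 35100 to 43470 CPM in Control libraries. Cyp4a14 and Cyp4a10, microsomal enzymes that hydroxylate fatty acids at the omega end, had the largest fold changes of these falls. Cyp4a14 had 276, 464, 590 and 453 CPM in Cpt2PparaDKO livers against 7262, 8288, 8604 and 8842 CPM in Control livers, and Cyp4a10 had 222, 261, 199 and 227 CPM in Cpt2PparaDKO livers against 3549, 3963, 3127 and 3676 CPM in Control livers. Their log2 fold changes were -4.21 ± 0.22 (SE, adjusted p = 4.44e-11) and -3.97 ± 0.19 (SE, adjusted p = 8.74e-12). Every Cpt2PparaDKO library lay far below every Control library for both genes. Cyp4a32, a further member of this family, had a log2 fold change of -3.52 ± 0.35 (SE, adjusted p = 1.15e-06). Reads of such near-identical paralogs may have been shared among them by the authors' counting, which also holds for the Mup, Gsta, Gstm, Cyp2a, Cyp2c and Acot1 to Acot3 genes.

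Ehhadh, the bifunctional enzyme of peroxisomal β-oxidation, had 188, 257, 300 and 263 CPM in Cpt2PparaDKO livers and 1810, 2381, 1038 and 1734 CPM in Control livers, a log2 fold change of -2.79 ± 0.23 (SE, adjusted p = 3.18e-08). Vnn1, the pantetheinase vanin-1, had 12.1, 13.5, 6.45 and 7.45 CPM in Cpt2PparaDKO livers and 115, 119, 84.0 and 118 CPM in Control livers (log2 fold change -3.46 ± 0.30 SE, adjusted p = 1.63e-07). The groups did not overlap for either gene. Retsat, retinol saturase, averaged 169 ± 55.2 CPM in Cpt2PparaDKO livers and 1574 ± 231 CPM in Control livers (SD, n = 4 each; log2 fold change -3.22 ± 0.21 SE, adjusted p = 1.18e-09). Smaller falls were measured for Acot1, a cytosolic acyl-CoA thioesterase (log2 fold change -0.85 ± 0.20 SE, adjusted p = 0.00257), for Creb3l3, a membrane-bound transcription factor of the fasted liver (log2 fold change -1.08 ± 0.15 SE, adjusted p = 2.66e-05), and for Angptl4, a secreted inhibitor of lipoprotein lipase (log2 fold change -0.95 ± 0.27 SE, adjusted p = 0.0109). The Angptl4 call was lost without Control replicate 3 (adjusted p = 0.0545).

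The 3 targets that rose were Pdk4, Acot2 and Plin2. Pdk4, the kinase that shuts off pyruvate dehydrogenase in fasting, had 49.5, 38.2, 21.8 and 53.6 CPM in Cpt2PparaDKO livers against 7.24, 6.08, 13.4 and 7.20 CPM in Control livers. Acot2, a mitochondrial acyl-CoA thioesterase, had 44.1, 42.9, 30.8 and 118 CPM in Cpt2PparaDKO livers against 9.73, 8.71, 14.5 and 16.2 CPM in Control livers, and Plin2, the main coat protein of hepatocyte lipid droplets, had 1190, 1062, 840 and 1739 CPM in Cpt2PparaDKO livers against 390, 482, 388 and 558 CPM in Control livers. The lowest Cpt2PparaDKO library lay above the highest Control library for each of them, and their log2 fold changes were 2.27 ± 0.47 (SE, adjusted p = 0.00151), 2.26 ± 0.36 (SE, adjusted p = 0.000167) and 1.41 ± 0.22 (SE, adjusted p = 8.11e-05). Without Cpt2PparaDKO replicate 4 they were 2.14, 1.70 and 1.21. Fgf21, the hepatokine of prolonged fasting, had 9.36, 11.3, 9.07 and 3.84 CPM in Cpt2PparaDKO livers and 2.65, 3.58, 6.03 and 1.52 CPM in Control livers. These values overlapped, and the difference did not pass the test (log2 fold change 1.30 ± 0.53 SE, adjusted p = 0.0733). It passed without Cpt2PparaDKO replicate 4 (adjusted p = 0.0467) and without Control replicate 3 (adjusted p = 0.039).

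Set against loss of Cpt2 alone, all 46 targets were lower in Cpt2PparaDKO livers, with a median log2 fold change of -2.34, where 24.4% of all genes differed between these groups, 12.1% higher and 12.2% lower. The genes that were higher than in Control livers were among them. Pdk4 averaged 40.8 ± 14.2 CPM in Cpt2PparaDKO livers and 770 ± 187 CPM in Cpt2KO livers (log2 fold change -4.24 ± 0.50 SE, adjusted p = 8.78e-06). Acot2 averaged 58.9 ± 39.7 CPM in Cpt2PparaDKO livers and 357 ± 145 CPM in Cpt2KO livers (log2 fold change -2.60 ± 0.36 SE, adjusted p = 4.3e-05), and Plin2 averaged 1208 ± 382 CPM in Cpt2PparaDKO livers and 3933 ± 910 CPM in Cpt2KO livers (log2 fold change -1.70 ± 0.23 SE, adjusted p = 9.48e-06). Fgf21 was 8.39 ± 3.19 CPM in Cpt2PparaDKO livers and 74.9 ± 23.9 CPM in Cpt2KO livers (log2 fold change -3.16 ± 0.51 SE, adjusted p = 0.000275). Ehhadh averaged 252 ± 46.7 CPM in Cpt2PparaDKO livers and 11278 ± 1506 CPM in Cpt2KO livers (log2 fold change -5.48 ± 0.26 SE, adjusted p = 3.82e-12), and Acot1 averaged 80.8 ± 21.97 CPM in Cpt2PparaDKO livers and 1493 ± 437 CPM in Cpt2KO livers (log2 fold change -4.21 ± 0.23 SE, adjusted p = 2.88e-11). For Pdk4, Acot2 and Plin2 the level in Cpt2PparaDKO livers thus lay between those of Control and Cpt2KO livers, whereas Ehhadh and Acot1 lay below both.

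**Figure D2:**
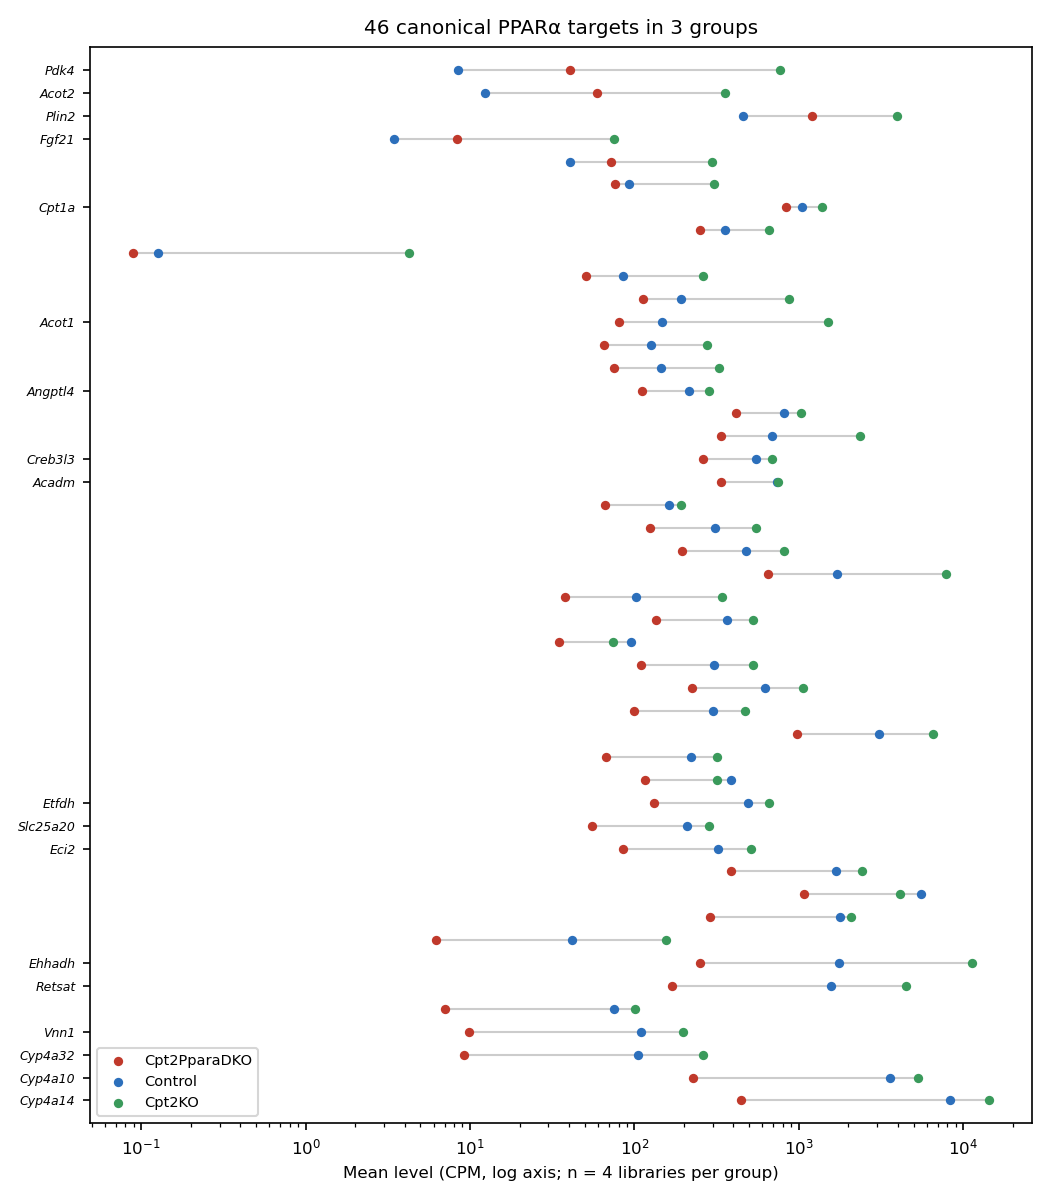
Mean level of the 46 canonical PPARα targets in Cpt2PparaDKO, Control and Cpt2KO livers (CPM, log axis, n = 4 each; 1 line per gene, named for some of those described in the text, sorted from the top down by the log2 fold change of Cpt2PparaDKO over Control). The Cpt2PparaDKO point lies left of the Cpt2KO point for all 46 genes. Genes for which it lies right of the Control point include Pdk4, Acot2 and Plin2, at the top, which were called higher, and Fgf21, which was not called.

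The receptors themselves can be compared per transcript length. Ppara stood at 18.9 ± 3.37 FPKM in Cpt2PparaDKO livers and 59.7 ± 11.96 FPKM in Control livers (SD, n = 4 each, the authors' FPKM). Pparg, the receptor of adipocytes and fatty livers, stood at 12.2 ± 2.18 FPKM in Cpt2PparaDKO livers and 2.85 ± 0.204 FPKM in Control livers. Its counts gave 35.5, 36.3, 28.8 and 44.9 CPM in Cpt2PparaDKO livers against 9.23, 8.57, 8.74 and 7.72 CPM in Control livers, a log2 fold change of 2.09 ± 0.18 (SE, adjusted p = 7.23e-08). Every Cpt2PparaDKO library was above every Control library. Pparg was also higher than in Cpt2KO livers (log2 fold change 0.64 ± 0.17 SE, adjusted p = 0.0091), a call that was lost without both female-pattern libraries (adjusted p = 0.0536). Rxra, the partner of both receptors, fell (log2 fold change -0.96 ± 0.17 SE, adjusted p = 0.000198).

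Promoters are shown for the 3 called targets with the largest falls and the 3 with the largest rises that have an entry in RefSeq (build GRCm38.p6), as windows from 250 bases before the start of the gene to 50 bases after it. The windows are written 5′ to 3′ on the gene's strand, and capitals mark the 13 bases closest to the PPAR response element on either strand.
Cyp4a32, log2 fold change -3.52, chr4:115600688-115600987, plus strand: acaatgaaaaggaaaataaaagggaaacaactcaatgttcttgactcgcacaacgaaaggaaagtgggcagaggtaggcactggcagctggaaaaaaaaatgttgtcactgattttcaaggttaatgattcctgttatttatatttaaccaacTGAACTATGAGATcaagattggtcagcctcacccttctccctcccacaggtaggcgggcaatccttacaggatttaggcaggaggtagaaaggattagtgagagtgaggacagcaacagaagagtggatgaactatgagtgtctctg
Retsat, log2 fold change -3.22, chr6:72598352-72598651, plus strand: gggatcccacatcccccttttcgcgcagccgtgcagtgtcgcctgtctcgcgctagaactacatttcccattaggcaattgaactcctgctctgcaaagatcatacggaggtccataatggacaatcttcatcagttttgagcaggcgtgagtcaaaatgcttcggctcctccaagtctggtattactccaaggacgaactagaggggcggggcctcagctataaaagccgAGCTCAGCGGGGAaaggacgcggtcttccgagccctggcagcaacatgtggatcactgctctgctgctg
Ehhadh, log2 fold change -2.79, chr16:21787785-21788084, minus strand: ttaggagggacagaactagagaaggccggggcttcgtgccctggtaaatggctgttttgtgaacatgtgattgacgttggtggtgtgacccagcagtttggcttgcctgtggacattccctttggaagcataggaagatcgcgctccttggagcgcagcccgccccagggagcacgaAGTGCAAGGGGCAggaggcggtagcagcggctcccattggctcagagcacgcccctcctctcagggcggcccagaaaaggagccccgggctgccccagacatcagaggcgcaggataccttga
Pdk4, log2 fold change 2.27, chr6:5496229-5496528, minus strand: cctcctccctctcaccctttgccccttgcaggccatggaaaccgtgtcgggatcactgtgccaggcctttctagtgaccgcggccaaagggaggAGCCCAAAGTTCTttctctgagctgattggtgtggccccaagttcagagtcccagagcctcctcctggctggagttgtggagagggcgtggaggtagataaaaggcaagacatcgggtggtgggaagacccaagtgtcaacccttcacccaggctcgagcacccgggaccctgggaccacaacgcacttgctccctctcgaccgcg
Acot2, log2 fold change 2.26, chr12:83987611-83987910, plus strand: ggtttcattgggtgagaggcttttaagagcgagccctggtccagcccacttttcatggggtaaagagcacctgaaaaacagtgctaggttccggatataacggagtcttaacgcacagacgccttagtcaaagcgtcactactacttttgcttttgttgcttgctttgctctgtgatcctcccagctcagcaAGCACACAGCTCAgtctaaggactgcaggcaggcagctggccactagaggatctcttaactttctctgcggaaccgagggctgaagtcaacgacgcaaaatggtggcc
Plin2, log2 fold change 1.41, chr4:86670010-86670309, minus strand: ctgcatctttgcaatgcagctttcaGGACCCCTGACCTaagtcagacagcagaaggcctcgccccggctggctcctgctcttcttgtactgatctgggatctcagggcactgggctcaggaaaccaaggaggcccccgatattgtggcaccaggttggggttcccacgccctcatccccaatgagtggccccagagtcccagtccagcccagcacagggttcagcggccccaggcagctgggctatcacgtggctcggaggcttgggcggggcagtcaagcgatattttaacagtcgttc
Of the 12 fixed bases of the element, Plin2 matched 10, on the opposite strand, which includes a whole half-site AGGTCA. Cyp4a32 and Acot2 matched 9, and Retsat, Ehhadh and Pdk4 matched 8. Among the promoters of 11011 tested genes, 3.84% held a stretch with at least 10 matches, 25.1% one with at least 9 and 78.9% one with at least 8, so the closest stretches of the windows other than that of Plin2 were common ones. Of 38 PPARα targets with a window, 7 reached 10 matches. The exact repeat was in 0.0636% of all promoters and in 0 of the 38 targets. The half-site AGGTCA alone was in 15.8% of promoters and in 11 of the 38, and TGATGNAA, a form of the C/EBP-ATF element, was in 2.92% of promoters and in 1 of the 38. The looser repeat of AGGNCA was in 0.354% of promoters and in 1 of the 38, that of Fabp1, the liver fatty acid binding protein, where the stretch with its flanks, at chr6:71199804-71199832 of GRCm38.p6, is shown because it is the only such match.
Fabp1: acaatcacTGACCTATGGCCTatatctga
Fabp1 is named for this match and not for its change, and PPARα sites outside these windows were not searched.

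Enzymes of fatty acid oxidation fell in mitochondria, peroxisomes and microsomes. Of 24 measured genes of mitochondrial fatty acid oxidation, 23 fell and 0 rose, with a median log2 fold change of -1.22 (-1.03 without Cpt2PparaDKO replicate 4). Slc25a20, the translocase that works between CPT1 and CPT2, had 55.9, 59.9, 58.8 and 47.0 CPM in Cpt2PparaDKO livers and 195, 200, 216 and 230 CPM in Control livers, and Etfdh, which passes electrons from acyl-CoA dehydrogenases to ubiquinone, had 130, 141, 152 and 105 CPM in Cpt2PparaDKO livers against 448, 505, 492 and 527 CPM in Control livers. No library of one group reached the other for these genes (-1.92 ± 0.13 (SE, adjusted p = 3.43e-09) and -1.90 ± 0.14 (SE, adjusted p = 6.1e-09)). The isomerase Eci2 (log2 fold change -1.92 ± 0.15 SE, adjusted p = 1.25e-08), the thiolase Acaa2 (log2 fold change -1.83 ± 0.23 SE, adjusted p = 5.48e-06) and Acadm, the medium-chain acyl-CoA dehydrogenase (log2 fold change -1.12 ± 0.16 SE, adjusted p = 2.61e-05), fell as well. Of 31 peroxisomal genes 28 fell and 0 rose, with a median of -1.38, and of 12 omega-oxidation genes 10 fell and 0 rose, with a median of -1.93. Decr2, the peroxisomal dienoyl-CoA reductase, fell by 2.58 on the log2 scale, and Cat, catalase, which removes the hydrogen peroxide of peroxisomal oxidation, fell by 1.38. Among 6 ketone body genes, 3 fell and 1 rose. Acat1, the mitochondrial acetoacetyl-CoA thiolase, was among those that fell (log2 fold change -1.70 ± 0.21 SE, adjusted p = 4.83e-06). Slc16a6, a monocarboxylate transporter that exports ketone bodies in zebrafish liver, rose, at 9.76, 9.45, 9.91 and 25.1 CPM in Cpt2PparaDKO livers and 6.36, 4.93, 2.08 and 3.04 CPM in Control livers (log2 fold change 1.72 ± 0.36 SE, adjusted p = 0.0013, and 1.26 without Cpt2PparaDKO replicate 4).

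Among lipid storage genes the direction was mixed. Of 26 lipid droplet and triglyceride genes, 7 rose and 12 fell. Cidec, which enlarges lipid droplets by fusing them, had 115, 118, 71.2 and 147 CPM in Cpt2PparaDKO livers and 20.01, 25.0, 22.4 and 29.8 CPM in Control livers. Plin4, another droplet coat protein, had 154, 180, 123 and 107 CPM in Cpt2PparaDKO livers against 21.1, 23.9, 66.5 and 40.2 CPM in Control livers, and Hilpda, an inhibitor of the triglyceride lipase ATGL, had 5.67, 6.69, 8.28 and 8.15 CPM in Cpt2PparaDKO livers against 2.65, 2.02, 1.73 and 1.87 CPM in Control livers. All Cpt2PparaDKO libraries were above all Control libraries for these genes, with log2 fold changes of 2.22 ± 0.21 (SE, adjusted p = 2.11e-07), 1.90 ± 0.49 (SE, adjusted p = 0.00685) and 1.78 ± 0.29 (SE, adjusted p = 0.000107). Mogat1, a monoacylglycerol acyltransferase, fell to 0.158 ± 0.0536 CPM in Cpt2PparaDKO livers, against 1.71 ± 0.826 CPM in Control livers (log2 fold change -3.38 ± 0.39 SE, adjusted p = 2.9e-06). Hsd17b11, a droplet-bound dehydrogenase, fell by 2.24 on the log2 scale, and Fitm1, a droplet-forming protein, fell by 2.78. None of the 26 genes was higher in Cpt2PparaDKO than in Cpt2KO livers, and 20 were lower. Of 18 lipogenic genes, 9 fell and 1 rose. Srebf1, the main transcription factor of lipogenesis, fell by 1.69, Thrsp, a thyroid-hormone-responsive lipogenic protein, fell by 2.80, and Acacb, the acetyl-CoA carboxylase beside mitochondria, rose (log2 fold change 1.06 ± 0.19 SE, adjusted p = 0.000221). In cholesterol synthesis 6 of 25 genes rose and 6 fell. The rises included Sqle, squalene epoxidase (log2 fold change 1.32 ± 0.43 SE, adjusted p = 0.0264), and all 6 depended on single libraries, with 0 left without Control replicate 1 or without Control replicate 2 and 1 left without Cpt2PparaDKO replicate 1.

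Markers and secreted products of hepatocytes, which hold the highest levels in the tissue, mostly fell. In bulk tissue, fewer hepatocytes and less of these RNAs per hepatocyte cannot be told apart. Of 10 hepatocyte markers 8 fell and 0 rose, with summed levels of 39260 to 43370 CPM in Cpt2PparaDKO livers and 88900 to 109800 CPM in Control livers. Alb, serum albumin, had 15960, 17710, 22800 and 25900 CPM in Cpt2PparaDKO livers and 55140, 69490, 60370 and 66330 CPM in Control livers (log2 fold change -1.61 ± 0.24 SE, adjusted p = 4.86e-05). Of 24 secreted hepatocyte proteins 20 fell, with a median of -0.86, and 1 rose, Serpina7, the thyroxine-binding globulin, with 59.9, 45.8, 40.4 and 223 CPM in Cpt2PparaDKO livers and 3.21, 2.36, 3.95 and 2.81 CPM in Control livers (log2 fold change 4.90 ± 0.67 SE, adjusted p = 5.7e-05), and the log2 fold change was 4.01 without replicate 4. Of 19 apolipoprotein and lipoprotein genes 16 fell and 3 rose, and 1 rose without Control replicate 3 or without Control replicate 4. Apoa4, which is made with triglyceride-rich particles, rose, at 3877, 3911, 3114 and 1920 CPM in Cpt2PparaDKO livers against 872, 922, 398 and 434 CPM in Control livers (log2 fold change 2.29 ± 0.34 SE, adjusted p = 4.34e-05). Its mean in Cpt2KO livers was higher still, at 12292 ± 4551 CPM (log2 fold change -1.94 ± 0.33 SE, adjusted p = 0.000224).

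In nitrogen metabolism, 11 of 14 urea cycle and ammonia genes and 23 of 29 amino acid breakdown genes fell and 0 rose, with medians of -0.92 and -1.14. Bhmt, which returns homocysteine to methionine, had 1125, 1017, 1067 and 435 CPM in Cpt2PparaDKO livers and 7468, 8349, 5630 and 7588 CPM in Control livers (log2 fold change -2.99 ± 0.36 SE, adjusted p = 6.02e-06), and Otc, ornithine transcarbamylase, had 135, 120, 121 and 44.2 CPM in Cpt2PparaDKO livers against 377, 394, 355 and 373 CPM in Control livers (log2 fold change -1.83 ± 0.33 SE, adjusted p = 0.000391). Cpt2PparaDKO replicate 4 was the lowest library for both genes, and the other 3 libraries of its group also lay below every Control library. Haao of the kynurenine pathway fell by 1.91 and Mat1a, the S-adenosylmethionine synthase of liver, fell by 1.05. Of 16 genes of gluconeogenesis and fasting glucose, 10 fell and 2 rose. G6pc, glucose-6-phosphatase, had 83.8, 121, 180 and 40.3 CPM in Cpt2PparaDKO livers and 582, 726, 427 and 557 CPM in Control livers (log2 fold change -2.43 ± 0.46 SE, adjusted p = 0.000748), Slc37a4, the transporter that feeds it, fell by 1.67, and Pck1, the cytosolic PEP carboxykinase, fell by 1.08. Igfbp1, a secreted IGF-binding protein repressed by insulin, rose, at 1016, 844, 846 and 1953 CPM in Cpt2PparaDKO livers and 156, 157, 200 and 119 CPM in Control livers (log2 fold change 2.88 ± 0.72 SE, adjusted p = 0.00601).

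Bile acid genes gave 13 falls and 0 rises among 21 measured. Cyp7a1, which catalyses the limiting step from cholesterol to bile acids, had 34.8, 42.8, 48.2 and 26.1 CPM in Cpt2PparaDKO livers and 166, 172, 204 and 172 CPM in Control livers (log2 fold change -2.23 ± 0.43 SE, adjusted p = 0.000834), and Akr1d1, the steroid reductase of the same pathway, had 26.4, 27.2, 41.3 and 13.2 CPM in Cpt2PparaDKO livers against 260, 246, 314 and 268 CPM in Control livers (log2 fold change -3.33 ± 0.57 SE, adjusted p = 0.000353). Slc10a1, the bile acid uptake carrier, fell by 1.94. Of 20 cytochromes P450 of drug metabolism 14 fell and 0 rose (2 rose without Cpt2PparaDKO replicate 3), among them Cyp3a11 (log2 fold change -2.30 ± 0.33 SE, adjusted p = 4.49e-05) and Cyp2e1 (log2 fold change -1.79 ± 0.27 SE, adjusted p = 4.95e-05). Of 21 hepatocyte transcription factors 11 fell and 1, Pparg, rose. Hnf4a, the master regulator of hepatocyte genes, was lower by less than most of these enzymes (log2 fold change -0.55 ± 0.15 SE, adjusted p = 0.00685), and Nr1i3, the xenobiotic receptor CAR, fell by 1.41. Among zonal genes, 5 of 17 pericentral genes fell (17.6% of all genes tested fell), such as Glul, glutamine synthetase (log2 fold change -1.34 ± 0.28 SE, adjusted p = 0.000991), and 7 of 12 periportal genes fell, such as Cyp2f2 (log2 fold change -2.21 ± 0.41 SE, adjusted p = 0.000581). The pericentral falls were 3 without Control replicate 2, 3 or 4 and without Cpt2PparaDKO replicate 3 or 4.

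**Figure D3:**
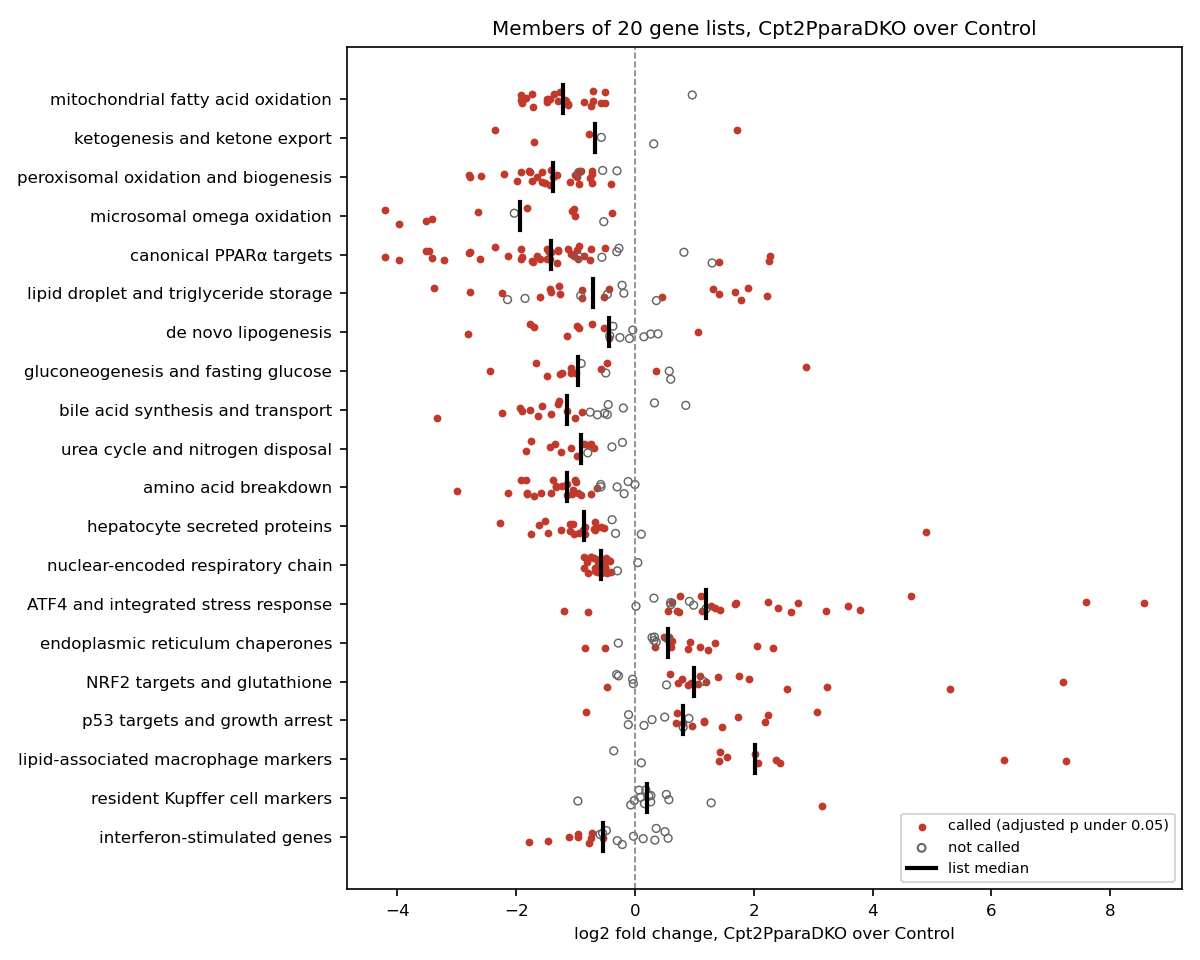
Log2 fold change of Cpt2PparaDKO over Control for every tested member of 20 gene lists (1 point per gene, filled where called, short bar at the list median; dashed line at the median over all 15669 genes, 0). Every called member of the mitochondrial, peroxisomal and omega oxidation lists lies left of the line, and most members of the stress and lipid-associated macrophage lists lie right of it.

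Stress genes moved the other way. Of 31 genes of ATF4 and the integrated stress response, 22 rose and 2 fell, with a median log2 fold change of 1.20 (19 rose and 1 fell without Cpt2PparaDKO replicate 4, median 1.11). Nupr1, a stress-induced chromatin protein, had 80.6, 65.0, 42.0 and 237 CPM in Cpt2PparaDKO livers and 0.442, 0.945, 0.416 and 0.410 CPM in Control livers. Psat1, of serine synthesis, had 12.3, 10.7, 5.05 and 50.6 CPM in Cpt2PparaDKO livers against 0.829, 1.01, 0.624 and 0.644 CPM in Control livers. Both reached at most 1.01 CPM in the Control libraries and were highest in Cpt2PparaDKO replicate 4, and their log2 fold changes were 7.59 ± 0.83 (SE, adjusted p = 7.36e-06) and 4.65 ± 0.68 (SE, adjusted p = 8.68e-05). Without replicate 4 they were 6.85 and 3.61. Slc7a11, the cystine importer, had 1.44, 2.05, 0.701 and 5.74 CPM in Cpt2PparaDKO livers and 0 reads in each of the 4 Control libraries, which makes it at least 53.4-fold higher against a floor of 3 reads over the Control group (adjusted p = 0.00991), and at least 30.0-fold without replicate 4. Atf5, a transcription factor of the same pathway, rose by 1.34 on the log2 scale, whereas Shmt2, the mitochondrial serine hydroxymethyltransferase, fell by 1.20.

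Of 20 endoplasmic reticulum chaperone genes 12 rose and 2 fell, but 6 rose without Cpt2PparaDKO replicate 4, 5 without Control replicate 1 and 7 without Control replicate 4. Hspa5, the chaperone BiP, had 1362, 1107, 967 and 2673 CPM in Cpt2PparaDKO livers and 558, 707, 713 and 624 CPM in Control livers (log2 fold change 1.23 ± 0.29 SE, adjusted p = 0.00309, and 0.84 without Cpt2PparaDKO replicate 4). Sdf2l1, a component of its complex, had 59.7, 55.8, 57.0 and 83.5 CPM in Cpt2PparaDKO livers against 16.4, 18.6, 14.4 and 12.3 CPM in Control livers (log2 fold change 2.05 ± 0.35 SE, adjusted p = 0.000294), and the secreted chaperone-like factor Manf rose by 1.35. The groups did not overlap for these genes. In Cpt2PparaDKO over Cpt2KO livers 17 of the 20 were higher and 0 lower, with a median of 1.27. Of 22 NRF2 and glutathione genes 15 rose and 1 fell, with a median of 1.00 (12 rose without Cpt2PparaDKO replicate 4). Gsta1 and Gstm3, glutathione transferases, had 30.6, 38.9, 33.5 and 85.8 CPM and 264, 214, 137 and 682 CPM in Cpt2PparaDKO livers, against 0.111, 0.0675, 0.693 and 0.410 CPM and 9.12, 7.70, 9.92 and 6.20 CPM in Control livers. Srxn1, which repairs peroxiredoxins, had 400, 347, 226 and 1288 CPM in Cpt2PparaDKO livers against 65.2, 65.7, 54.2 and 56.1 CPM in Control livers. Cpt2PparaDKO replicate 4 was the highest library for all of them, and the other 3 were also above every Control library (7.21 ± 0.86 (SE, adjusted p = 1.51e-05), 5.30 ± 0.56 (SE, adjusted p = 4.42e-06) and 3.23 ± 0.56 (SE, adjusted p = 0.000381)). Without replicate 4 the log2 fold change was 6.77 for Gsta1, 4.66 for Gstm3 and 2.45 for Srxn1, and for Gsta1 it was 7.86 without Control replicate 3. Of 19 p53 and growth arrest genes 11 rose and 1 fell. Eda2r, a TNF receptor family member, rose by 3.07, Gadd45a, a growth arrest protein, rose by 2.20, and the death receptor gene Fas fell by 0.83.

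**Figure D4:**
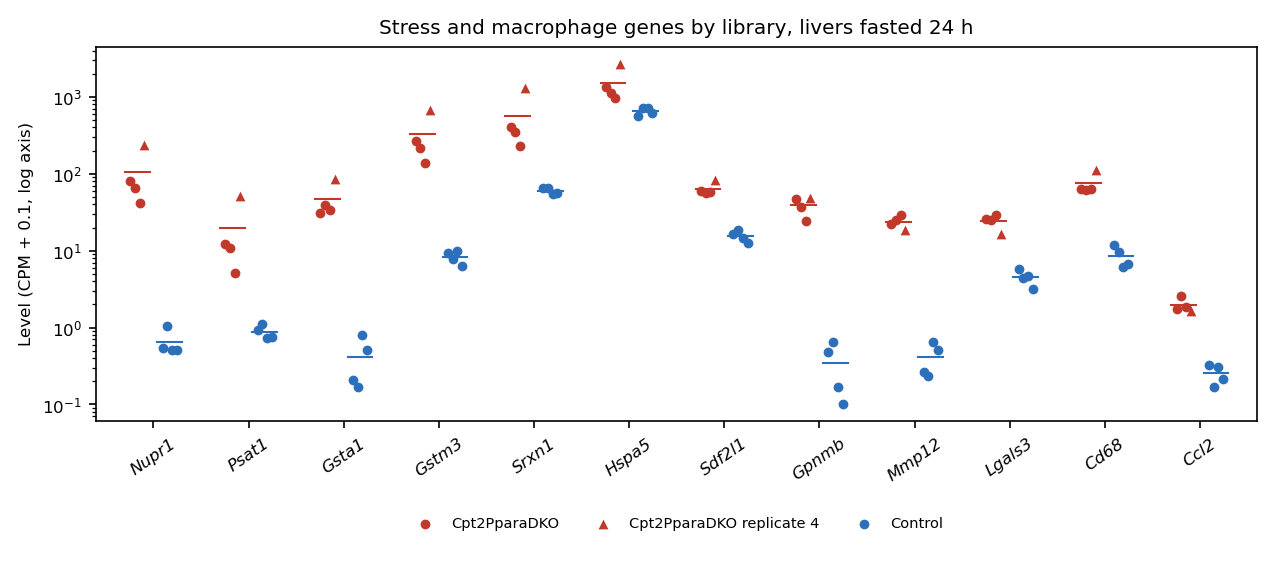
Levels of 12 stress and macrophage genes in each library (CPM, log axis with 0.1 CPM added so that values of 0 can be drawn; Cpt2PparaDKO left of Control, 1 point per library, the triangle is replicate 4 of Cpt2PparaDKO). Every Cpt2PparaDKO library lies above every Control library. Replicate 4 is the highest of its group for Nupr1, Psat1, Gsta1, Gstm3, Srxn1, Hspa5, Sdf2l1, Gpnmb and Cd68 but the lowest for Mmp12, Lgals3 and Ccl2.

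Markers of lipid-associated macrophages, the phagocytes that gather in fatty liver, mostly rose. Of 11 such markers 9 rose and 0 fell, with a median log2 fold change of 2.02 and summed levels of 163.1 to 180.1 CPM in Cpt2PparaDKO livers against 42.66 to 53.41 CPM in Control livers. Without Cpt2PparaDKO replicate 4 the count was the same, with a median of 2.17. Spp1, osteopontin, among the members with the highest level and also listed as a cholangiocyte marker, was not called. Its log2 fold change was -0.36, and -0.35 without Cpt2PparaDKO replicate 4. Mmp12, macrophage elastase, had 22.1, 25.0, 29.3 and 18.5 CPM in Cpt2PparaDKO livers and 0.166, 0.135, 0.555 and 0.410 CPM in Control livers. Gpnmb, a lysosomal membrane protein, had 46.6, 37.3, 24.4 and 48.1 CPM in Cpt2PparaDKO livers against 0.387, 0.540, 0.0693 and 0 CPM in Control livers, and Lgals3, galectin-3, had 25.8, 25.3, 28.9 and 16.1 CPM in Cpt2PparaDKO livers against 5.64, 4.32, 4.58 and 3.04 CPM in Control livers. The groups were widely apart for all of them (6.22 ± 0.45 (SE, adjusted p = 6.69e-09), 7.26 ± 0.48 (SE, adjusted p = 7.03e-09) and 2.45 ± 0.28 (SE, adjusted p = 2.64e-06)), and the value for Gpnmb was 7.89 without Control replicate 2. Gpnmb did not differ from Cpt2KO livers beyond the spread (log2 fold change 0.04 ± 0.30 SE, adjusted p = 0.931), whereas Mmp12 was higher than in Cpt2KO livers (log2 fold change 5.74 ± 0.43 SE, adjusted p = 4.04e-09). Of 14 resident Kupffer cell markers only Cd68, a lysosomal protein shared by all macrophages, was called, at 62.9, 61.7, 63.5 and 112 CPM in Cpt2PparaDKO livers and 11.8, 9.52, 6.03 and 6.55 CPM in Control livers (log2 fold change 3.14 ± 0.27 SE, adjusted p = 1.25e-07). The summed level of these 14 was 732.6 to 816.7 CPM in Cpt2PparaDKO livers and 498.7 to 829.7 CPM in Control livers, which overlapped.

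Other non-hepatocyte markers moved less. Of 14 sinusoidal endothelial markers 0 were called by edgeR and 0 by DESeq2, with 3 at an unadjusted p under 0.05 (7 rose without Control replicate 1), with sums of 590.3 to 691.2 CPM in Cpt2PparaDKO livers and 395.7 to 810.3 CPM in Control livers. Of 19 stellate cell and matrix markers 8 rose and 1 fell, with sums of 465.2 to 576.3 CPM in Cpt2PparaDKO livers and 341.8 to 400.9 CPM in Control livers. The rises fell to 5 without Control replicate 3, 4 without Control replicate 4 and 5 without Cpt2PparaDKO replicate 1. Col1a1, fibrillar collagen, had 9.39, 7.31, 8.04 and 6.71 CPM in Cpt2PparaDKO livers and 3.15, 3.44, 1.32 and 4.10 CPM in Control livers (log2 fold change 1.38 ± 0.27 SE, adjusted p = 0.000649), and Lrat, the retinyl ester synthase of stellate cells, rose by 0.74. By edgeR and by DESeq2, no lymphocyte marker of 9 tested and no erythroid transcript of 5 tested was called, with 1 at an unadjusted p under 0.05 in each list, and the 1 call among 8 cholangiocyte markers was a fall of Sox9, a ductal transcription factor (log2 fold change -1.09 ± 0.31 SE, adjusted p = 0.00993). Of 3 neutrophil markers tested 1 rose, Csf3r, the G-CSF receptor (log2 fold change 1.07 ± 0.30 SE, adjusted p = 0.00869). Of 13 chemokines 5 rose and 1 fell. Ccl2, which recruits monocytes, had 1.62, 2.50, 1.78 and 1.55 CPM in Cpt2PparaDKO livers and 0.221, 0.0675, 0.208 and 0.117 CPM in Control livers (log2 fold change 3.53 ± 0.70 SE, adjusted p = 0.000611), Ccl6 rose by 1.35, and Cxcl12, a stromal chemokine, fell by 1.62. Of 20 interferon-stimulated genes 9 fell, 0 rose and 11 were not called (7 fell without Cpt2PparaDKO replicate 4), with Ifit1 (log2 fold change -1.78 ± 0.30 SE, adjusted p = 0.000142) and Irgm1 (log2 fold change -1.11 ± 0.17 SE, adjusted p = 4.86e-05) among the falls, while 16 of the 20 were higher than in Cpt2KO livers. How far these cell markers contribute to the gene changes above was not tested.

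Genes of the respiratory chain encoded in the nucleus fell by a small and even amount. Of 31 measured, 29 fell and 0 rose, with a median log2 fold change of -0.57 and sums of 4646 to 5751 CPM in Cpt2PparaDKO livers against 7353 to 8017 CPM in Control livers. The TMM factors were 1.17 to 1.29 in Cpt2PparaDKO and 0.841 to 0.924 in Control libraries. This scaling lowers every CPM of Cpt2PparaDKO relative to Control. RLE size factors moved the median log2 fold change over all genes by only 0.01. Whether falls as small as these depend on such scaling was not tested. Atp5a1, of ATP synthase, averaged 727 ± 50.1 CPM in Cpt2PparaDKO livers and 1210 ± 71.7 CPM in Control livers (log2 fold change -0.74 ± 0.12 SE, adjusted p = 0.000128), and Ndufb3, of complex I, averaged 25.2 ± 0.231 CPM in Cpt2PparaDKO livers and 45.7 ± 4.47 CPM in Control livers (log2 fold change -0.86 ± 0.12 SE, adjusted p = 2.22e-05). Of 15 transcripts of the mitochondrial genome 4 fell and 0 rose, but 2 fell without Cpt2PparaDKO replicate 4 or without Control replicate 1. Among 18 clock genes 8 fell and 1 rose. Ciart, a repressor of the clock, fell by 2.88, and Hlf, an output factor, fell by 1.83, and the hour at which each liver was taken is not given in the labels. Of 15 iron genes, the ferritin chains Fth1 (log2 fold change 0.95 ± 0.17 SE, adjusted p = 0.00019) and Ftl1 (log2 fold change 0.55 ± 0.17 SE, adjusted p = 0.0182) rose and 3 fell, while 4 rose without Control replicate 3. Over all genes tested 14.9% rose and 17.6% fell, shares near those of these iron genes and of the acute phase genes below. The share of cell cycle genes called was also near that over all genes, 32.5%. Of 24 cell cycle genes 5 rose, among them Ccnd1, cyclin D1 (32.4, 25.8, 24.0 and 90.4 CPM in Cpt2PparaDKO livers and 9.84, 8.17, 5.06 and 8.43 CPM in Control livers, 2.45 ± 0.47 (SE, adjusted p = 0.000787), and 1.82 without replicate 4), and Mcm2, of the replicative helicase (log2 fold change 1.76 ± 0.28 SE, adjusted p = 7.42e-05), and 2 fell, among them Birc5, survivin (log2 fold change -2.12 ± 0.46 SE, adjusted p = 0.00134). Of 21 lysosome and autophagy genes 8 rose and 2 fell, with Ctsl, cathepsin L, at 2552 ± 763 CPM in Cpt2PparaDKO livers and 884 ± 81.6 CPM in Control livers (log2 fold change 1.53 ± 0.25 SE, adjusted p = 9.57e-05) and Sqstm1, the autophagy receptor p62, at 1348 ± 649 CPM in Cpt2PparaDKO livers and 454 ± 30.7 CPM in Control livers (log2 fold change 1.57 ± 0.29 SE, adjusted p = 0.000418). Of 23 acute phase genes 4 rose and 5 fell, with 3 falls without Control replicate 2, 3 or 4 or without Cpt2PparaDKO replicate 2. Orm2, an orosomucoid, had 53.5, 48.9, 41.6 and 44.0 CPM in Cpt2PparaDKO livers and 6.36, 5.67, 5.34 and 5.56 CPM in Control livers (log2 fold change 3.03 ± 0.53 SE, adjusted p = 0.000435), Apcs, serum amyloid P, rose by 2.18, and Saa4, the constitutive serum amyloid A, fell by 3.25.

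Among all protein-coding genes at 5 CPM or more, the largest rises were led by Cyp2a4, Nupr1, Gpnmb, Gsta1, Mmp12 and Nrg1. Cyp2a4, a steroid hydroxylase that is higher in female mouse liver, had 5.74, 45.2, 117 and 2051 CPM in Cpt2PparaDKO livers and 1.22, 0.405, 0.416 and 2.69 CPM in Control livers. The value of 2051 CPM was that of the female-pattern library, and the log2 fold change of 8.83 became 5.54 without it and 9.62 without Control replicate 4. Nrg1, the growth factor neuregulin-1, had 9.46, 6.29, 6.22 and 37.1 CPM in Cpt2PparaDKO livers and 0.498, 0.0675, 0.208 and 0 CPM in Control livers (log2 fold change 6.16 ± 0.78 SE, adjusted p = 1.99e-05), which was 5.18 without Cpt2PparaDKO replicate 4 and 7.31 without Control replicate 1. Prelid2, a member of a family of mitochondrial lipid transfer proteins, rose by 5.86 on the log2 scale, and by 6.50 without Control replicate 3. Elovl7, a fatty acid elongase, rose by 4.77, and by 3.59 without Cpt2PparaDKO replicate 4. Among the largest falls, Inmt, an amine N-methyltransferase, had 17.8, 18.9, 17.2 and 6.95 CPM in Cpt2PparaDKO livers and 238, 208, 398 and 452 CPM in Control livers (log2 fold change -4.41 ± 0.73 SE, adjusted p = 0.000303). Raet1d, a ligand of the NKG2D receptor, had 0.588, 0.624, 0.655 and 0.582 CPM in Cpt2PparaDKO livers against 12.9, 13.7, 10.8 and 12.8 CPM in Control livers (log2 fold change -4.35 ± 0.46 SE, adjusted p = 1.32e-06), and Car3, carbonic anhydrase 3, had 18.6, 20.2, 23.2 and 4.50 CPM in Cpt2PparaDKO livers against 293, 311, 311 and 364 CPM in Control livers (log2 fold change -4.27 ± 0.78 SE, adjusted p = 0.000685). Upp2, a uridine phosphorylase, fell by 4.09 and Ugt3a1, a glycosyltransferase, by 3.64. Mup8, a major urinary protein gene, was in this group through 1558 CPM in Control replicate 2 alone, and its log2 fold change of -10.58 became -3.72 without that library and -11.31 without Cpt2PparaDKO replicate 1.

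Among long non-coding RNAs at 1 CPM or more, the largest rises with groups apart were those of AI506816, Snhg18 and Ttc39aos1, and the largest falls those of Tbx3os1, Hnf4aos and C4a, in the gene classes of the deposited table. Snhg18 had 4.68, 5.35, 5.05 and 2.79 CPM in Cpt2PparaDKO livers and 0.663, 1.08, 0.416 and 0.761 CPM in Control livers (log2 fold change 2.60 ± 0.44 SE, adjusted p = 0.000146). Hnf4aos, named as antisense to Hnf4a, had 2.12, 2.32, 2.67 and 0.776 CPM in Cpt2PparaDKO livers against 16.8, 14.5, 14.5 and 17.9 CPM in Control livers (log2 fold change -3.02 ± 0.41 SE, adjusted p = 2.29e-05), and Tbx3os1 fell by 3.92. No source used here gives the strand setting of the counting, so reads of an antisense gene and of its partner could not be told apart. AI506816 rose by 2.68, and by 1.58 without Cpt2PparaDKO replicate 4.

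Genes that differ between the sexes separated replicate 4 from its group. Of 13 male-biased liver genes 4 fell, and 5 fell without Cpt2PparaDKO replicate 4. Without Control replicate 1, 2 or 4 or without Cpt2PparaDKO replicate 3, 2 fell. The summed level of the 13 genes was 7159, 6352, 5542 and 644.2 CPM in Cpt2PparaDKO livers and 10100 to 13260 CPM in Control livers. It was lowest in replicate 4, where the median log2 ratio to the Control mean was -4.39, against -0.70, -0.60 and -0.81 in the other Cpt2PparaDKO libraries (0.5 CPM added to each value). For 6 female-biased genes the ratio was 3.08 in replicate 4 and -0.57, -0.83 and -0.56 in the others. Replicate 4 also had the lowest ratio of its group for the lists of mitochondrial oxidation (-1.65, against -1.09, -1.07 and -1.16), peroxisomal oxidation (-2.01, against -1.11, -1.05 and -1.27) and amino acid breakdown (-2.16, against -1.12, -1.06 and -0.82). It had the highest for the integrated stress response, at 1.60, against 1.04, 0.85 and 0.70. In each of these 4 lists the other 3 libraries lay on the same side of the Control libraries as replicate 4. With sex as a term of the fit 4757 genes were called against Control livers. The group held 1 such library, so its sex and its other differences from its group cannot be told apart.

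**Figure D5:**
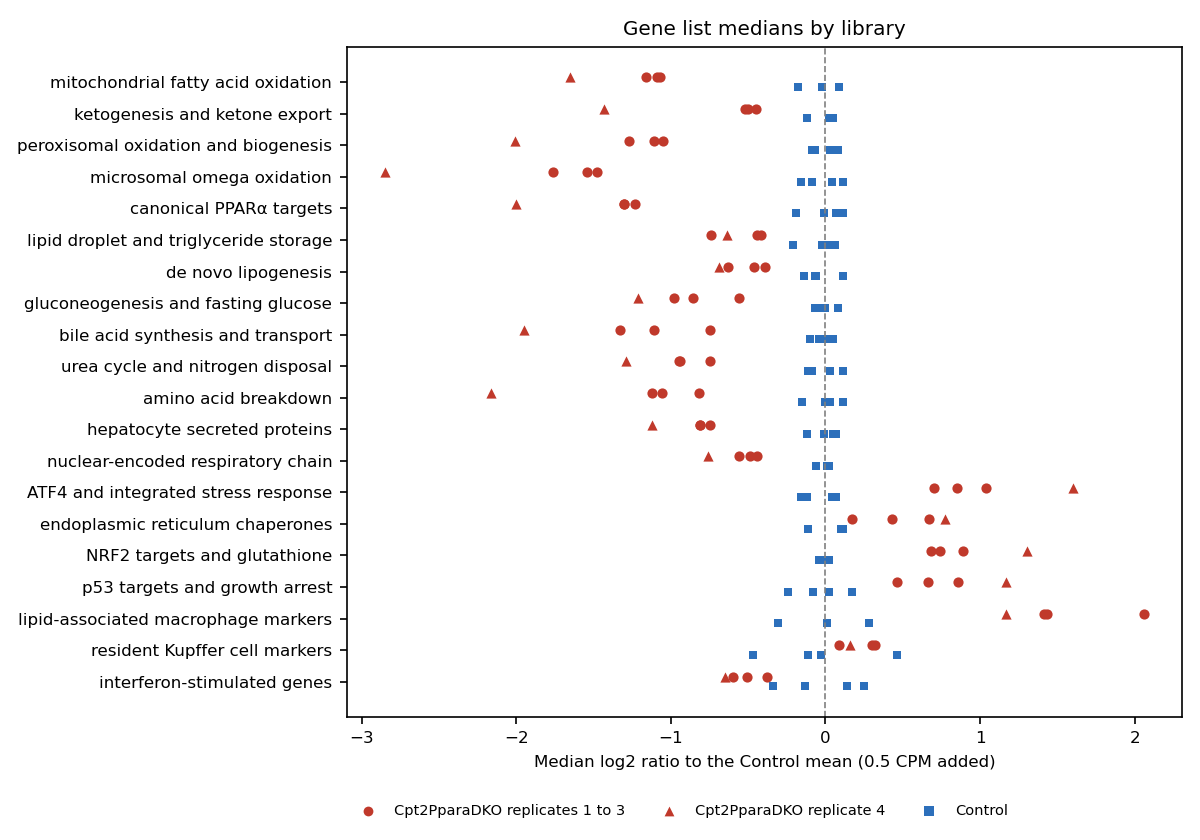
Median over list members of the log2 ratio of each library to the Control mean, for 20 gene lists (0.5 CPM added to each value; circles are Cpt2PparaDKO replicates 1 to 3, the triangle is replicate 4, squares are Control libraries, and list names run down the page). Replicate 4 lies farthest from the Control libraries for the oxidation and amino acid lists, for example at -2.01 for peroxisomal oxidation, and the other Cpt2PparaDKO libraries lie on the same side.

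Against loss of Cpt2 alone, 3822 genes differed, 1903 higher and 1919 lower in Cpt2PparaDKO livers, and 2495 differed in a fit of only these 8 libraries. The largest falls were led by Fabp3, the fatty acid binding protein of heart, which averaged 0.0463 ± 0.0382 CPM in Cpt2PparaDKO livers and 20.3 ± 8.11 CPM in Cpt2KO livers (log2 fold change -8.63 ± 0.85 SE, adjusted p = 8.52e-07) and 0.107 ± 0.0853 CPM in Control livers. Pnldc1, a poly(A)-specific ribonuclease, averaged 0.780 ± 0.363 CPM in Cpt2PparaDKO livers and 25.1 ± 10.3 CPM in Cpt2KO livers (log2 fold change -5.05 ± 0.55 SE, adjusted p = 3.18e-06). The other falls named by the rule included Ehhadh, Cyp4a14, Cyp4a32 and Retsat. The largest rises were those of Gstm3 (log2 fold change 5.93 ± 0.58 SE, adjusted p = 1.17e-06), with 5.28 without Cpt2PparaDKO replicate 4, Mmp12, and Slc13a5, the citrate carrier of the hepatocyte membrane, which averaged 9.72 ± 3.46 CPM in Cpt2PparaDKO livers and 0.310 ± 0.228 CPM in Cpt2KO livers (4.92 ± 0.47 (SE, adjusted p = 1.05e-07); 5.59 without Cpt2KO replicate 3). Adgrf1, an adhesion receptor, averaged 10.7 ± 5.11 CPM in Cpt2PparaDKO livers and 0.431 ± 0.410 CPM in Cpt2KO livers (4.61 ± 0.54 (SE, adjusted p = 3.23e-06); 5.50 without Cpt2KO replicate 4). Serpina7 averaged 92.4 ± 87.7 CPM in Cpt2PparaDKO livers and 3.65 ± 2.39 CPM in Cpt2KO livers (log2 fold change 4.64 ± 0.66 SE, adjusted p = 8.04e-05), and the log2 fold change was 3.74 without Cpt2PparaDKO replicate 4. Car3 averaged 16.6 ± 8.32 CPM in Cpt2PparaDKO livers and 16.6 ± 7.38 CPM in Cpt2KO livers, which overlapped. Both comparisons use the same 4 Cpt2PparaDKO libraries.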

How the data were processed

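RNA from livers of mice fasted 24 h was sequenced in 20 libraries of 5 groups with 4 libraries each. Reads were aligned with HISAT2 to GRCm39 (mm39), per the submitters' processing notes. The sources used here do not say which tool counted the reads, on which annotation or with which strand setting. The authors deposited whole-number read counts per gene, for 56748 genes with no line that names no gene, FPKM (scaled by gene length and depth by the authors), and tables of their own comparisons that hold a log2 fold change and an adjusted p-value per gene.

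Counts were analysed in R 4.3.3 with edgeR 4.0.16. Genes passing filterByExpr with a minimum count of 10 (15669) were normalised with TMM factors and fitted with the robust quasi-likelihood model over all 20 libraries, with group as the only term, so that the 5 groups shared 1 estimate of the spread. The SE was taken from the log2 fold change and its F statistic. Libraries of a group differed by more than sampling noise (chi-square over degrees of freedom of 12.6 or more). P-values were Benjamini-Hochberg adjusted over all tested genes. Alternatives were DESeq2 1.42.0, size factors (RLE), no filter, only the 8 libraries compared, the replicate number or sex (called per library from Xist and Y-linked counts) as a term, and libraries left out.

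Of the 15666 genes shared with the authors' deposited table for Cpt2PparaDKO over Control, 4691 were called here and there in the same direction and 0 in opposite directions, which is 92.1% of the calls made here and 89.8% of those in the authors' deposited table.

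Genes named were the largest called rises and falls with groups apart (10 each, at a mean of 5 CPM or more; 3 each for long non-coding RNAs; 8 each against Cpt2KO), the targeted and fasting genes, and in each list up to 3 rises, 3 falls and the 2 highest genes; some genes this rule selects are not reported here. Genes, lists and tests were chosen with earlier results of these data known. Promoters came from RefSeq (GRCm38.p6), whose coordinates differ from the build of the counts, and were matched by symbol.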

Additional observations from a re-analysis of the deposited data

Results flagged for a closer look

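For each of 120 genes named with a test, the library farthest from its group was looked at in both groups of 4, and it counted as standing apart when its gap to the nearest library was a larger share of the group's whole range than the 95% critical value of Dixon's test, which chance gives in about 1 of 20 groups. Of 240 such groups 39 met this, 29 in Cpt2PparaDKO and 10 in Control livers, and all 29 in Cpt2PparaDKO livers were replicate 4, the female-pattern library.

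Replicate 4 of Cpt2PparaDKO was the highest of its group for stress and redox genes, with Psat1 at 50.6, Sdf2l1 at 83.5, Gsta1 at 85.8 and Srxn1 at 1288 CPM. It was also the highest for secreted factors, with Igfbp1 at 1953, Serpina7 at 223, Angptl4 at 172 and Nrg1 at 37.1 CPM, and for the female-biased Cyp2a4 at 2051 CPM. The same held for Acot2 at 118, Slc16a6 at 25.1, Elovl7 at 30.5, Glul at 589, Ccnd1 at 90.4, Cd68 at 112, Ctsl at 3687 and the long non-coding RNA AI506816 at 66.9 CPM.

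It was the lowest of its group for genes of fatty acid oxidation and ketogenesis, with Cpt1a at 468, Acaa2 at 155 and Acat1 at 102 CPM. Other hepatocyte genes at their lowest there were Bhmt at 435, Otc at 44.2, Slc10a1 at 106, Cyp2f2 at 119, Inmt at 6.95, Mogat1 at 0.0776 and Rxra at 293 CPM. Irgm1 at 18.7 and Lrat at 16.8 CPM completed these.

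Among Control libraries, replicate 3 was the highest for Ciart at 81.8, Pdk4 at 13.4 and Saa4 at 301 CPM and the lowest for Vnn1 at 84.0 and Anxa2 at 4.37 CPM. Replicate 2 was the highest for Mup8 at 1558 and Nupr1 at 0.945 CPM. Replicate 4 was the highest for Fabp3 at 0.234 and the lowest for Upp2 at 482 CPM, and replicate 1 was the lowest for Shmt2 at 189 CPM.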

How the results depend on the processing

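The count of genes called between Cpt2PparaDKO and Control livers was 5091, and the alternatives gave 4158 to 5501, with no gene called in the opposite direction. Leaving out 1 library gave 4158 (without Control replicate 4) to 4876. Against Cpt2KO livers the count of 3822 was 2997 to 4075 with 1 library left out and 2495 in a fit of only the 8 libraries compared, where fewer genes were tested and fewer samples set the spread.

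With the replicate block, the replicate number as a term, the counts were 4921 against Control, of which 4794 had been called without it, and 3642 against Cpt2KO livers. Libraries that share a number did not deviate together (r = 0.017, 0.059, -0.008 and 0.066 against Control and 0.233, -0.06, 0.017 and -0.095 against Cpt2KO), so the numbers were not read as pairs.

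Of 1797 log2 fold changes against Control, over 120 named genes and all alternatives, 1777 kept direction and call, 14 lost and 4 gained the call, and 2 reversed. Those lost were of Angptl4, Sqle and Afp, those gained of Fgf21, and those that reversed of Cpt1b, which was never called (-0.083 to 0.328 with 1 library left out). Against Cpt2KO livers 234 of 240 kept both. Gpnmb, not called, took values of -0.078 to 0.306 with 1 library left out and -0.18 without both female libraries, where Pparg lost its call (0.50). The cause was not tested. Of 645 list medians 614 moved by less than the SD of the list's medians in the Cpt2PparaDKO libraries. That SD includes replicate 4, and leaving out a Cpt2PparaDKO library can hardly move a median by more. The count therefore says little about how stable the medians are. Depth limits genes near 0 reads, such as Cpt1b, Mogat1 and Slc7a11.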

Other observations

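Genes of the fetal and ductal hepatocyte programme were measured in part, with 8 tested, of which 3 rose and 1 fell in Cpt2PparaDKO livers. Without Cpt2PparaDKO replicate 4, 2 rose and 1 fell, and the median log2 fold change of the list went from 1.37 to 0.06. The list's median log2 ratio to the Control mean was 2.51 in replicate 4 and 0.01, 0.03 and -0.09 in the other Cpt2PparaDKO libraries (0.5 CPM added). Anxa5, annexin A5, had 274, 265, 226 and 343 CPM in Cpt2PparaDKO livers and 61.0, 58.2, 52.3 and 56.1 CPM in Control livers (log2 fold change 2.28 ± 0.25 SE, adjusted p = 2.39e-06). Anxa2, annexin A2, had 30.1, 26.3, 19.4 and 51.0 CPM in Cpt2PparaDKO livers and 6.36, 6.34, 4.37 and 6.61 CPM in Control livers (log2 fold change 2.42 ± 0.27 SE, adjusted p = 2.64e-06). No Cpt2PparaDKO library overlapped a Control library for either annexin gene. Afp, alpha-fetoprotein, rose less (log2 fold change 0.82, adjusted p = 0.0349), and its call was lost under 8 of 15 alternatives.

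A few genes had 0 reads in all 4 Control libraries and were picked after their values were seen. Vmn2r3, a vomeronasal receptor gene, had 11.5, 7.44, 4.67 and 7.96 CPM in Cpt2PparaDKO livers, at least 170-fold above a floor of 3 reads over the Control group (adjusted p = 5.82e-05). It averaged 7.90 ± 2.81 CPM in Cpt2PparaDKO livers and 0.408 ± 0.476 CPM in Cpt2KO livers (SD, n = 4 each). Sprr1a, a cornified envelope protein gene, had 1.27, 0.892, 0.281 and 8.11 CPM in Cpt2PparaDKO livers, highest in replicate 4, and was at least 56.7-fold above that floor (adjusted p = 0.00244), or 17.5-fold without replicate 4. Areg, the growth factor amphiregulin, had 0.753, 0.936, 0.280 and 1.09 CPM in Cpt2PparaDKO livers, at least 16.4-fold above it (adjusted p = 5.64e-05). Areg averaged 0.764 ± 0.350 CPM in Cpt2PparaDKO livers and 0.410 ± 0.110 CPM in Cpt2KO livers, where the difference did not pass the test (log2 fold change 0.90 ± 0.49 SE, adjusted p = 0.197).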
